A study of Mus musculus with 8 samples.

Results

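The genes examined here are the nuclear genes of the mitochondrial respiratory chain and ATP synthase, measured in mouse olfactory mucosa on 8 expression arrays. A probe set was a member if the platform annotation gave it a single gene symbol that begins with Nduf, Uqcr or Atp5, with Sdh and a letter from a to d, or with Cox and a digit from 4 to 8. This rule took 100 of the 12488 probe sets, which stand for 73 of 8251 named genes, and each gene was represented by its brightest probe set. Of the 73 genes, 66 passed a filter on dim signals, an intensity over 362.7 on at least 2 arrays, and were tested. Atp5j2, Cox5a, Cox6a2, Cox7a1, Cox8a, Ndufa12 and Ndufc2 did not pass it. Among the 66 tested genes, 61 were over that intensity on all 8 arrays, while Atp5g1, Atp5k, Cox6b2, Ndufa1 and Ndufs4 passed on some arrays only, so a high signal in a single group could have brought them in.

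All mice had lost both olfactory bulbs, the target tissue of the olfactory neurons, by surgery. There were 4 groups with 2 arrays each: mice labelled as lacking Ccl3 (Ccl3-/-) and injected with CCL3 protein, mice labelled Ccl3-/- and injected with carrier, C57BL/6 wild-type mice injected with CCL3, and C57BL/6 wild-type mice injected with carrier. CCL3, also called MIP-1 alpha, is a secreted signal that draws macrophages and further white blood cells into tissue, and the series asks how it bears on the macrophages that enter the epithelium once the target is gone. The dose, the times and the mice behind each array are not stated in the labels, so each p-value reflects variation among the 8 arrays alone, part of which may be technical.

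The respiratory chain is the set of protein complexes in the inner mitochondrial membrane that passes electrons from NADH and succinate to oxygen and pumps protons on the way. Complex I takes electrons from NADH, complex II from succinate, complex III hands them to cytochrome c, and complex IV to oxygen; complex V, ATP synthase, makes ATP from the proton gradient. Most subunits are encoded in the nucleus, with a few encoded in mitochondrial DNA that the symbol rule does not cover. Olfactory neurons pack mitochondria into the dendritic knob and the basal cell body, and the sustentacular cells around them are rich in oxidative enzymes. In whole tissue, fewer cells of a type and less RNA per cell cannot be told apart.

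The array medians lay between 581.4 and 660.3 intensity units. Omp, the olfactory marker protein of mature olfactory neurons, read between 4251 and 21779 on the 8 arrays, so the labelled tissue was present on each. The signal of Ccl3 itself contradicted the labelled genotypes. It read 727 and 729.5 on the CCL3 arrays labelled Ccl3-/-, 812 and 804 on the carrier arrays labelled Ccl3-/-, 223 and 386.5 on the wild-type CCL3 arrays, and 332 and 159 on the wild-type carrier arrays. All 4 arrays labelled Ccl3-/- were above all 4 wild-type arrays. The labels do not say which stretch of the gene was removed, and a probe set outside it would check nothing, so every genotype direction below rests on the labels alone.

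Carrier replicate 1 of the wild type stood apart from the other 7 arrays for the respiratory chain genes. It was the lowest of the 8 arrays for 29 of the 66 genes (43.9%, against 22.9% of all 8150 probe sets tested) and the highest for 14 (21.2%, against 20.9%). The interquartile range of the genes was 0.85 on the log2 scale there, measured from each gene's mean over the 8 arrays, and 0.18 to 0.35 on the other arrays. All probe sets were also most widely spread on it, with an interquartile range of 0.62 against 0.29 to 0.49 on the others. The genes' median deviation on it was -0.18, against -0.07 to 0.10 on the other 7 arrays and 0.03 for all probe sets on the same array. In complex II 5 of 6 genes were lowest on this array and 1 highest. In complex I these numbers were 2 and 1 of 4 core subunits and 11 and 3 of 23 accessory subunits. Complex III had 2 genes lowest and 3 highest on it, complex IV had 4 and 3 and complex V had 5 and 3.

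**Figure D1:**
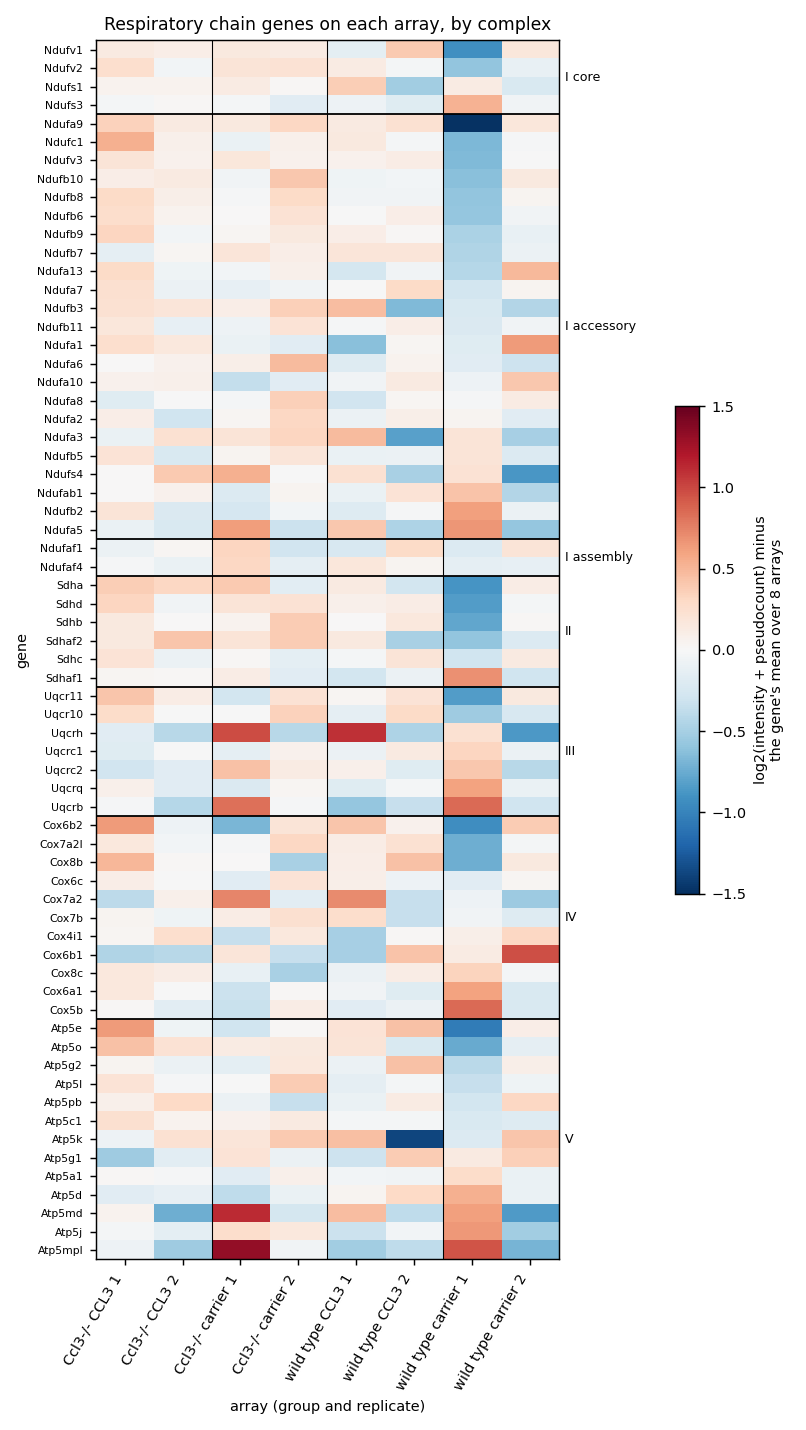
Log2(intensity + pseudocount) of 66 respiratory chain genes (down, grouped by complex) on the 8 arrays (across, group and replicate), as the difference from each gene's mean over the 8 arrays; red is above and blue below that mean. The column of wild-type carrier replicate 1 holds the lowest value of 29 genes and the highest of 14.

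Ndufa9, an accessory subunit at the joint between the arms of complex I, gave the clearest case, with an intensity of 2416 on wild-type carrier replicate 1 and 7604 to 8816 on the other 7 arrays. Cox5b, a nuclear subunit of complex IV, differed in the other direction, with 24939.8 on the same array and 10951.5 to 14908 elsewhere. Its complex IV partner Cox6a1 likewise read 46310.3 there and 24419.7 to 34057 elsewhere. The same array differed in measures that do not belong to the respiratory chain. The ratio of the 3′ to the 5′ probe set of Gapdh, a sign of RNA integrity, was 2.59 on it and 0.755 to 1.31 on the others, whereas the same ratio of Actb was 1.58 on it, the lowest of a range that reached 2.17. Omp read 4251 there and 8657 to 21779 elsewhere, and the summed intensity of 7 sustentacular cell markers was 90737 there and 128423 to 173324 elsewhere. The sum of 5 olfactory neuron markers, Omp among them, was 23488 there but lowest, at 19497, on carrier replicate 2 labelled Ccl3-/-. The part of RNA integrity and of cell content in the gene values was not tested. The medians for genotype after carrier, for CCL3 in the wild type and for the interaction, and part of the gene values, are also given without this array.

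**Figure D2:**
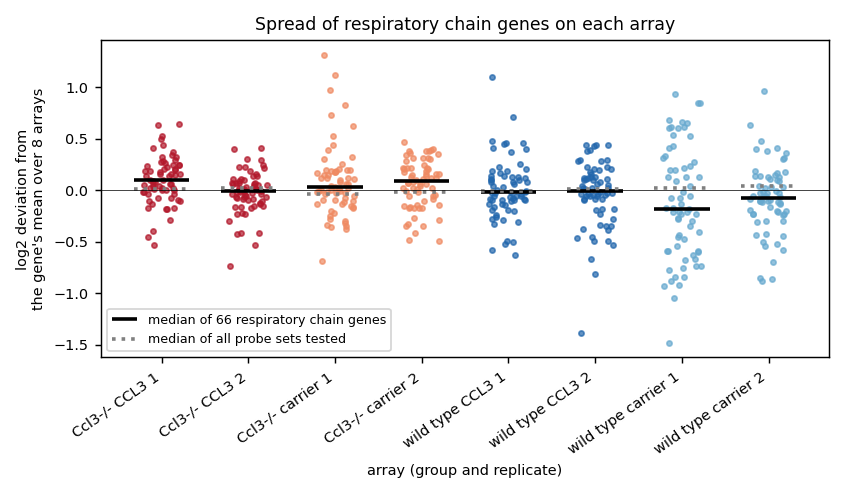
Deviation of each of the 66 genes (points) from its own mean over 8 arrays, in log2 units, on each array; black bars are the median of the 66 genes and dotted grey bars the median of all 8150 probe sets. The points of wild-type carrier replicate 1 are spread most widely, with a median of -0.18.

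Single genes varied from array to array by very different amounts. The highest array exceeded the lowest by over 2-fold for 30 of 66 genes and by over 3-fold for 10, in a range that ran from 1.30-fold for Cox6c to 4.97-fold for Atp5k. Atp5mpl, a small membrane subunit of ATP synthase, read 6198 and 4510.0 on the CCL3 arrays labelled Ccl3-/-, 16466 and 6308 on their carrier counterparts, 4535 and 5027 on the wild-type CCL3 arrays, and 12663 and 3993 on the wild-type carrier arrays. In both carrier groups, replicate 1 was more than 2-fold above replicate 2. Uqcrh, the hinge protein of complex III, read 7227 and 6084, 16128 and 6060.4, 17535.0 and 5893.5, and 9572 and 4442 on the same 4 groups in the same order. For these genes the spread within a group was as large as any difference between groups. At the steady end, Atp5a1, the alpha subunit of the catalytic head, stayed between 17172 and 23451 over all 8 arrays, and Cox6c between 16509.8 and 21393.5. The replicates of the wild-type carrier group were over 1.5-fold apart for 35 genes (53%, against 37% of all probe sets), those of the wild-type CCL3 group for 14 (21.2%, against 17.5%), those of the Ccl3-/--labelled carrier group for 8 (12.1%, against 25.3%) and those of the Ccl3-/--labelled CCL3 group for 3 (4.55%, against 10.7%).

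After carrier injection, 48 of the 66 genes had a higher mean in the group labelled Ccl3-/- than in the wild type (72.7%, against 47.9% of all probe sets), with a median log2 difference of 0.21 against -0.03 for all probe sets. No gene passed an adjusted p of 0.05 in limma, and none of the 8150 probe sets did (0%); 1 gene, Sdhaf2, was higher at an unadjusted p of 0.05 or less, where 932 probe sets passed (11.4%, with 5.03% higher and 6.4% lower). The medians by complex were 0.55 for complex II, 0.34 for the accessory and 0.32 for the core subunits of complex I, 0.28 for complex III, 0.18 for complex V (0.05 without either wild-type carrier array and 0.09 without carrier replicate 1 labelled Ccl3-/-) and 0.03 for complex IV, and 0.12 for the 2 assembly factors of complex I. Both arrays labelled Ccl3-/- were above both wild-type arrays for 16 genes (24.2%, against 15.6% of all probe sets) and below both for Atp5d, Cox8c and Ndufa10 (4.55%, against 22.9%). These values leaned on single arrays. Leaving out an array left 1 array in its group, so p-values of such fits would not reflect the spread in that group. Effect sizes are therefore given, and the gene counts given last cover only the arrays labelled Ccl3-/-. Those counts are not a range over all arrays. More genes were under an unadjusted p of 0.05 in limma without wild-type carrier replicate 1 or without replicate 2 of that group. Without wild-type carrier replicate 1 the median was 0.12, and without wild-type carrier replicate 2 it was 0.22. Ndufa9 had a log2 difference of 0.88 with all arrays, of 0.06 without wild-type carrier replicate 1 and of 1.71 without replicate 2 of that group. The complex II median became 0.21 when wild-type carrier replicate 1 was left out and 0.94 when replicate 2 of that group was, and those of the accessory and core subunits of complex I 0.12 and 0.14 without replicate 1. Complex III had a median of -0.13 when wild-type carrier replicate 2 was left out and of -0.05 when replicate 1 labelled Ccl3-/- was, and the complex IV median moved between -0.26 and 0.19, without carrier replicate 2 labelled Ccl3-/- and without wild-type carrier replicate 2. Without carrier replicate 1 labelled Ccl3-/-, 2 genes were under an unadjusted p of 0.05 in limma (11.6% of all probe sets). None was without carrier replicate 2 (7.97%), CCL3 replicate 1 (8.34%) or CCL3 replicate 2 (8.31%) with that label.

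No marker of any cell type passed the adjusted threshold in limma in this comparison, and 47.9% of all probe sets were above 0. At an unadjusted p below 0.05 in limma, 5.03% of all probe sets were higher and 6.4% lower. Of 10 tested neutrophil markers 9 were above 0 (median 0.90), 4 of them at an unadjusted p below 0.05 by limma, and the sum of the 12 on the array was 124083 and 176752 on the carrier arrays labelled Ccl3-/- and 99568 and 87814 on the wild-type carrier arrays. Of 8 neuronal precursor markers 0 were above 0 (median -0.64), 4 of them with an unadjusted p below 0.05 by limma, and their sums were 25955 and 16835 against 33067 and 34245. Of 7 sustentacular markers 5 were above 0 (median 0.49), 1 of them with an unadjusted p below 0.05 by limma. Their sums overlapped between the groups, at 149694 and 128423 against 90737 and 129668, with wild-type carrier replicate 1 lowest. Of 5 olfactory neuron markers 3 were above 0 (median 0.42), of 11 macrophage markers 8 (0.32) and of 5 bone and cartilage markers 4 (0.48). Of 5 red blood cell markers 2 were above 0 (-0.11), and of 4 ciliated cell markers 1 (-0.22). Under the same p, olfactory neurons and red blood cells had 1 higher marker each, macrophages 1 lower, and bone and cartilage 2 higher and 1 lower. No marker on these lists had a value of 0, and their part in the respiratory chain values was not tested.

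In complex II, which oxidises succinate and is counted here with its assembly factors Sdhaf1 and Sdhaf2, 5 of 6 genes had higher means on the carrier arrays labelled Ccl3-/-. The smallest of these differences was that of Sdhc (0.02 ± 0.25), and Sdhaf1 was lower (-0.23 ± 0.32). Sdhaf2, the factor that attaches the FAD cofactor to Sdha, read 990.1 and 1138 on the carrier arrays labelled Ccl3-/- and 531 and 724.5 on the wild-type carrier arrays, a log2 difference of 0.69 ± 0.30 (SE, n = 2 per group; adjusted p = 0.431 in limma). Sdhd, a membrane anchor of the complex, read 9944 and 10049 against 4794.5 and 8503, a log2 difference of 0.64 ± 0.30 (adjusted p = 0.453 in limma). Neither pair of groups overlapped, but the wild-type replicates of Sdhd were further apart than the nearest arrays of the 2 groups. Sdhb, the iron-sulphur subunit, read 8878 and 11112 on the arrays labelled Ccl3-/- and 4942 and 8653 on the wild-type arrays, and Sdha, the flavoprotein subunit, 1627 and 1085 against 615.5 and 1323. The groups of Sdhb did not overlap and those of Sdha did. The log2 differences were 0.59 ± 0.30 for Sdhb and 0.50 ± 0.35 for Sdha, and neither passed the test. When wild-type carrier replicate 1 was left out, the difference was 0.23 for Sdhd, 0.20 for Sdhb and 0.0073 for Sdha.

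In complex I, Ndufv2, an iron-sulphur subunit of the module that binds NADH, read 10433 and 10609.7 on the carrier arrays labelled Ccl3-/- and 5989.5 and 8407 on the wild-type carrier arrays. Its log2 difference was 0.56 ± 0.25 (SE, n = 2 per group; adjusted p = 0.440 in limma). A second, dimmer probe set of Ndufv2 was at -0.37 ± 0.27 in the same comparison, so the gene's direction depended on the probe set. Without wild-type carrier replicate 1 the brightest was at 0.32. Ndufa6, an accessory subunit of the peripheral arm, read 3448 and 4544 against 2874 and 2601, also without overlap, at 0.52 ± 0.25 (0.32 without carrier replicate 2 labelled Ccl3-/-). Ndufa10, an accessory subunit of the membrane arm, went the other way with 773 and 895.5 against 964 and 1380.2, a log2 difference of -0.43 ± 0.26 (adjusted p = 0.525 in limma) that was -0.19 without wild-type carrier replicate 2. Ndufb2, another membrane-arm subunit, had 15064 and 17359 against 27444 and 16897, and the difference of -0.41 was -0.06 without wild-type carrier replicate 1.

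In complex III, Uqcr10, a small subunit, read 10589 and 13518 on the carrier arrays labelled Ccl3-/- and 7264 and 8957 on the wild-type carrier arrays, without overlap and with a log2 difference of 0.56 ± 0.27 (SE, n = 2 per group; adjusted p = 0.455 in limma). Uqcrq, which sits beside it in the complex, read 20590.6 and 24446 against 36628 and 22417, a difference of -0.35 that was 0.00119 without wild-type carrier replicate 1. Uqcrh had a log2 difference of 0.59, and of -0.11 without carrier replicate 1 labelled Ccl3-/-. In complex IV, Cox6b1, a subunit that faces the intermembrane space, read 913 and 598 against 872 and 1641 (-0.63 ± 0.39), and Cox8c, the isoform known from testis, 2051 and 1556.5 against 2822 and 2176.5 (-0.45 ± 0.26). The Cox8c groups did not overlap and the Cox6b1 groups did; the adjusted p in limma was 0.511 for Cox8c and 0.527 for Cox6b1. Cox5b and Cox6a1 had differences of -0.42 and -0.34, which were 0.12 and 0.08 without wild-type carrier replicate 1. Cox7a2l read 6840.4 and 8596 on the arrays labelled Ccl3-/- and 4111 and 6781 on the wild-type arrays (0.53 ± 0.29). Cox7a2 had a difference of 0.59 with 16756 and 9009 against 9572.5 and 6874. Cox7a2l was at 0.17 when wild-type carrier replicate 1 was left out, and Cox7a2 at 0.15 when carrier replicate 1 labelled Ccl3-/- was. Cox6b1 was at -0.21 without wild-type carrier replicate 2 and Cox8c at -0.26 without carrier replicate 2 labelled Ccl3-/-.

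In complex V, Atp5o, the peripheral stalk subunit OSCP, read 8961 and 9154 on the carrier arrays labelled Ccl3-/- and 4839.7 and 7505 on the wild-type carrier arrays, a log2 difference of 0.58 ± 0.28 (SE, n = 2 per group; unadjusted p = 0.0671 in limma), and of 0.27 when wild-type carrier replicate 1 was left out. Atp5d, the delta subunit of the central stalk, read 1813 and 2209.2 against 3508.5 and 2209.3, a difference of -0.46 ± 0.28 (adjusted p = 0.527 in limma). Its higher array labelled Ccl3-/- and lower wild-type array were thus almost equal, and the difference was -0.14 without wild-type carrier replicate 1. The 3 other tested probe sets of Atp5d were at -0.65, -0.40 and -0.39 in this comparison, the same direction as the brightest.

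**Figure D3:**
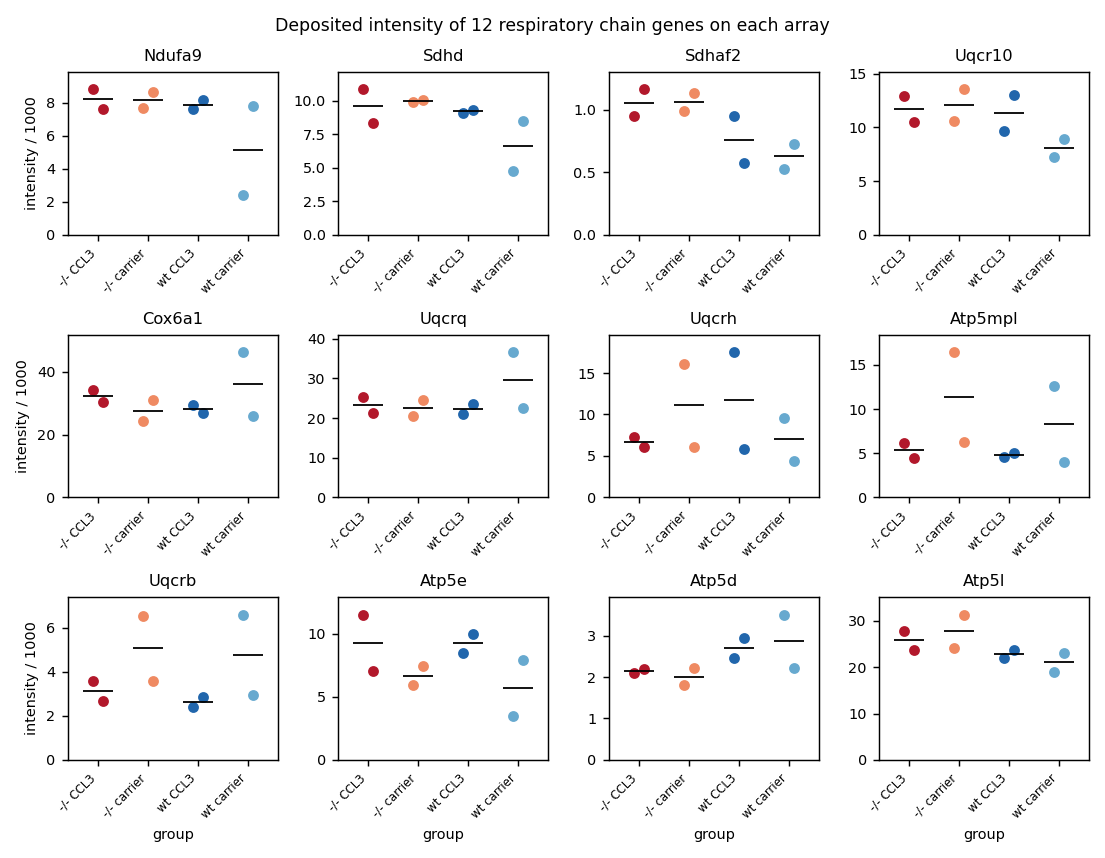
Deposited intensity (divided by 1000, linear axis from 0) of 12 respiratory chain genes on each array; points are arrays and bars group means, with the 4 groups from left to right Ccl3-/- CCL3, Ccl3-/- carrier, wild type CCL3 and wild type carrier. Ndufa9 and Sdhd are lowest on wild-type carrier replicate 1 (2416 and 4794.5), and Cox6a1 and Uqcrq are highest on it.

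After CCL3 injection, the respiratory chain genes of the 2 genotypes had a median log2 difference near that of all probe sets. It was 0.06, against 0.02 for all probe sets, and 43 of 66 genes had higher means on the arrays labelled Ccl3-/- (65.2%, against 52.8%). No gene was under an unadjusted p of 0.05 in limma, where 121 probe sets were (1.48%), and no probe set passed the adjusted threshold (0%). Both CCL3 arrays labelled Ccl3-/- were above both wild-type CCL3 arrays for 12 genes (18.2%, against 16.5%) and below both for Atp5d, Ndufaf4 and Ndufb7 (4.55%, against 12.9%). Sdhaf2 had the smallest unadjusted p, 0.162 in limma, with 948 and 1164 on the arrays labelled Ccl3-/- and 949 and 576 on the wild-type arrays, a log2 difference of 0.45 ± 0.30. Its groups overlapped, and the difference was smaller than the gap between the wild-type replicates. Ndufa1, a small membrane subunit needed to assemble complex I, read 465.5 and 433 against 208 and 385 (0.50 ± 0.38), and Cox4i1, the common isoform of a nuclear subunit of complex IV, 888 and 1052 against 586.5 and 878 (0.38 ± 0.29). Atp5o was at 0.35 ± 0.28 and Atp5d at -0.31 ± 0.28, with 2107.5 and 2188 on the arrays labelled Ccl3-/- and 2453 and 2945 on the wild-type arrays for Atp5d. With all probe sets of the gene averaged, however, Atp5d was at 0.09. That average took in a probe set below the filter on every array (57.3 to 274.5), and the other tested probe sets were at -0.13, -0.11 and 0.17. Atp5g1, which encodes the same ring subunit c as Atp5g2, was at -0.38 ± 0.34, Cox6b1 at -0.40 ± 0.39 and Uqcrh at -0.61 ± 0.58. These values also leaned on single arrays. Without wild-type CCL3 replicate 2, Sdhaf2 was at 0.13, Atp5o at 0.14, Atp5d at -0.18, Atp5g1 at -0.035 and Cox6b1 at 0.06. Without wild-type CCL3 replicate 1, Ndufa1 was at 0.18, Cox4i1 at 0.13 and Uqcrh at 0.17. The median itself was -0.02 without CCL3 replicate 1 labelled Ccl3-/- and 0.14 without CCL3 replicate 2 labelled Ccl3-/-.

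In the wild type, CCL3 against carrier used the same 2 carrier arrays as the genotype comparison after carrier, so the comparisons are not independent. The median log2 difference was 0.14 (all probe sets -0.02), with 39 of 66 genes above 0 (59.1%, against 48.2%). No gene was under an unadjusted p of 0.05 in limma, where 350 probe sets were (4.29%), and no probe set passed the adjusted threshold. Both CCL3 arrays were above both carrier arrays for 12 genes (18.2%, against 12%) and below both for Cox4i1, Ndufs3 and Uqcrb (4.55%, against 18.1%). Complex II had the highest median, 0.27, and 5 of its 6 genes were above 0, while complex III had -0.04 and complex V -0.01. The complex II median was 0.05 without wild-type carrier replicate 1, 0.61 without replicate 2 of that group and 0.45 without wild-type CCL3 replicate 2. Atp5e, the epsilon subunit of the central stalk, read 8484 and 10004 on the CCL3 arrays and 3506 and 7899.6 on the carrier arrays, a log2 difference of 0.79 ± 0.38 (SE, n = 2 per group; adjusted p = 0.911 in limma). Ndufb7, a subunit of the membrane arm of complex I, read 12897 and 12859 against 8278 and 10629.5 (0.45 ± 0.23). In both genes all CCL3 arrays were above all carrier arrays, though with all probe sets of the gene averaged Ndufb7 was at -0.12. That average took in a second probe set that was below the filter on every array (15.3 to 335.6). Cox7a2l had 7457 and 8129.5 against 4111 and 6781 (0.55 ± 0.29), and Ndufa9 7604 and 8148 against 2416 and 7839 (0.83 ± 0.44). Without wild-type carrier replicate 1, Atp5e was at 0.22, Ndufb7 at 0.27, Cox7a2l at 0.20 and Ndufa9 at 0.01. Without replicate 2 of that group Ndufa9 was at 1.66.

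In the same comparison Uqcrb, a small subunit of complex III that binds ubiquinone, read 2386 and 2841 on the CCL3 arrays and 6590.5 and 2935 on the carrier arrays (-0.74 ± 0.40). Only the first carrier array was far above the rest. Cox4i1 had a log2 difference of -0.44 ± 0.29 with 586.5 and 878 against 933 and 1103, Cox6b1 of -0.58 ± 0.39 with 531 and 1098 against 872 and 1641, and Ndufs3, a core subunit of complex I, of -0.37 ± 0.26 with 8951 and 8301 against 13634.5 and 9113. The groups of Cox4i1 and Ndufs3 did not overlap, and those of Cox6b1 did. Uqcrb was at -0.17 and Ndufs3 at -0.08 without wild-type carrier replicate 1, and Cox4i1 at -0.19 and Cox6b1 at -0.12 without wild-type CCL3 replicate 1. Leaving out wild-type carrier replicate 1 gave a median of 0.10 over the 66 genes, and leaving out replicate 2 of that group gave 0.15. The median was 0.09 without wild-type CCL3 replicate 1 and 0.16 without wild-type CCL3 replicate 2.

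Among mice labelled Ccl3-/-, the CCL3 arrays minus the carrier arrays gave a median log2 difference of -0.02 (all probe sets 0.03), with 31 of 66 genes above 0 (47%, against 54%). No gene was under an unadjusted p of 0.05 in limma, where 399 probe sets were (4.9%), and no probe set passed the adjusted threshold. Both CCL3 arrays were above both carrier arrays for 6 genes (9.09%, against 22.9%) and below both for 9 (13.6%, against 16%). Cox8c read 2499 and 2405 on the CCL3 arrays and 2051 and 1556.5 on the carrier arrays (0.43 ± 0.26 SE, n = 2 per group; adjusted p = 0.940 in limma). Cox8b, the isoform known from heart and skeletal muscle, had 8381 and 5947 against 5914 and 4180.4 (0.50 ± 0.34). The groups overlapped in neither gene. Atp5pb, the b subunit of the peripheral stalk, was at 0.41 ± 0.30 and Ndufa10 at 0.33 ± 0.26. Among genes with lower means, Atp5mpl was at -0.93 ± 0.54, Atp5md, another small membrane subunit of ATP synthase, at -0.77 ± 0.57, Uqcrb at -0.63 ± 0.40 and Uqcrc2, a core protein of complex III, at -0.50 ± 0.31. Uqcrc2 read 2703 and 2943 on the CCL3 arrays and 4537 and 3602 on the carrier arrays, and Uqcrb 3575 and 2674 against 6522 and 3586. Carrier replicate 1 was the highest of the 4 arrays for both, and also for Atp5mpl and Atp5md. Without it, Atp5mpl was at -0.25, Atp5md at -0.07 and Uqcrb at -0.21. Cox8c and Cox8b were both at 0.25 when carrier replicate 2 was left out. The median over the 66 genes was 0.08 without carrier replicate 2 and 0.07 without CCL3 replicate 2.

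**Figure D4:**
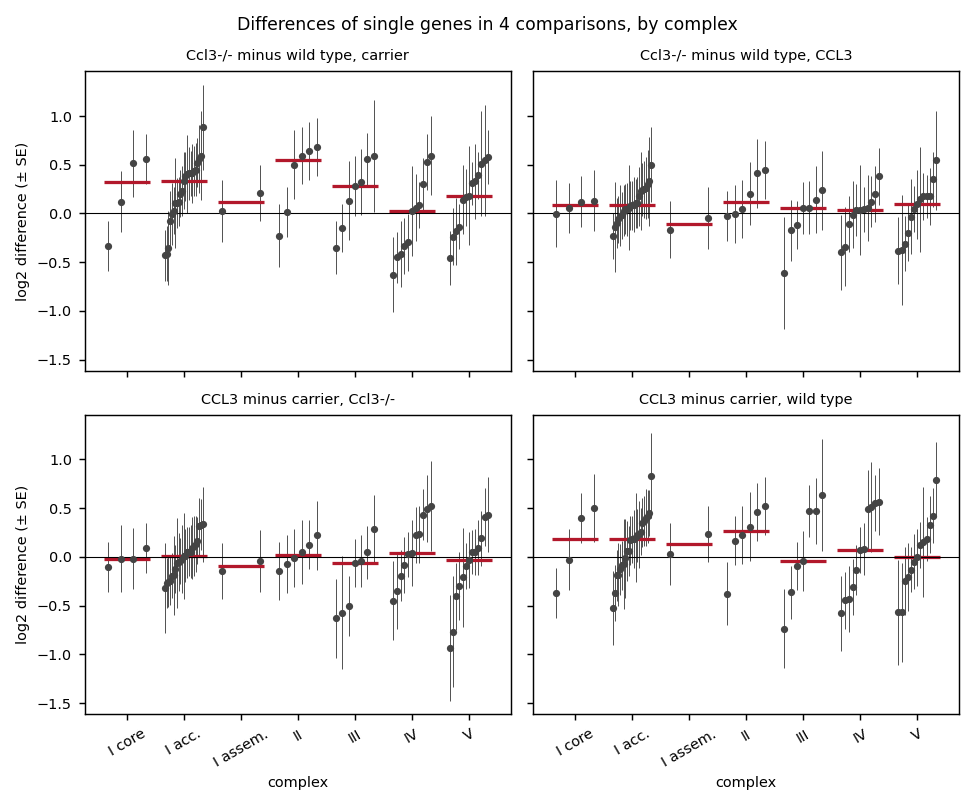
Log2 differences of the 66 genes (points, with bars of ± 1 SE from the fit) in 4 comparisons, ordered by size within each complex; red bars are complex medians. After carrier, complex II has the highest median (0.55) and complex IV the lowest (0.03), and no point passed the adjusted threshold in limma.

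The interaction, the CCL3 difference on the arrays labelled Ccl3-/- minus that in the wild type, had a median of -0.17 over the 66 genes (all probe sets 0.04), with 21 above 0 (31.8%, against 52.7%). No gene was under an unadjusted p of 0.05 in limma, where 412 probe sets were (5.06%), and none passed the adjusted threshold, so a different response to CCL3 in the 2 genotypes was not shown for any of these genes. The largest negative term was that of Uqcrh (-1.20 ± 0.81 SE), followed among the genes with the smallest p by Cox7a2 (-0.93 ± 0.58), Ndufb7 (-0.64 ± 0.33) and Cox7a2l (-0.64 ± 0.41). On the positive side were Ndufa1 (0.86 ± 0.54), Cox4i1 (0.68 ± 0.41), Cox8c (0.57 ± 0.37) and Cox6a1 (0.54 ± 0.41), and the adjusted p of these 8 genes in limma was 0.908. Uqcrh was at -0.43 and Cox7a2 at -0.41 without wild-type CCL3 replicate 1, and Cox7a2l at -0.28 and Cox6a1 at 0.12 without wild-type carrier replicate 1. The median was -0.07 without wild-type carrier replicate 1 or CCL3 replicate 2 labelled Ccl3-/-. Without wild-type carrier replicate 2 the median was -0.21, and without CCL3 replicate 1 labelled Ccl3-/- it was -0.25. Markers of some other cell types had interaction terms mostly on one side of 0 as well. Of the skeletal muscle markers 12 of 13 were above 0 (median 0.40), as were 5 of 5 of red blood cells (0.67) and 7 of 8 of neuronal precursors (0.50), while 6 of 7 sustentacular markers were below 0 (-0.41). Other lists were more evenly split, with 2 olfactory neuron markers above 0 and 3 below. These numbers were 4 and 6 for neutrophils, 4 and 7 for macrophages, 2 and 3 for bone and cartilage, and 3 and 1 for ciliated cells. None passed the adjusted threshold in limma, and their part in the respiratory chain values was not tested.

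Over both injections, the arrays labelled Ccl3-/- were set against the wild-type arrays 4 to 4. The median log2 difference was 0.10 (all probe sets -0.01), and 45 of 66 genes were above 0 (68.2%, against 48.4%). Sdhaf2 (0.57 ± 0.21 SE, unadjusted p = 0.0225 in limma) and Atp5o (0.46 ± 0.20, unadjusted p = 0.0424 in limma) were under an unadjusted p of 0.05, as were 483 probe sets (5.93%, with 3.03% higher), and their adjusted p was 0.808. Sdhaf2 averaged 1060.1 ± 107 on the 4 arrays labelled Ccl3-/- and 695 ± 189 on the 4 wild-type arrays (SD), and Atp5o averaged 9732 ± 1037 and 7191.5 ± 1875. In each gene 1 wild-type array lay within the range of the arrays labelled Ccl3-/-. For 2 genes all 4 arrays labelled Ccl3-/- were above all 4 wild-type arrays, where 1.31% of all probe sets were, and both belong to ATP synthase. Atp5c1, the gamma subunit of the rotor, ranged from 11842 to 13596 on the arrays labelled Ccl3-/- and from 9770.2 to 11269 on the wild-type arrays, with a log2 difference of 0.24 ± 0.16. Atp5l, subunit g of the membrane part, ranged from 23720.5 to 31353 against 18987.5 to 23649.5. Its log2 difference was 0.28 ± 0.17. Atp5d was the single gene with all 4 arrays labelled Ccl3-/- below all 4 wild-type arrays (1.88% of all probe sets), from 1813 to 2209.2 against 2209.3 to 3508.5, with next to no gap between the groups. With quantile normalization 1 gene was all above and 0 all below, and with all probe sets of a gene averaged 0 and 0. Leaving out wild-type CCL3 replicate 1 gave 6 genes under an unadjusted p of 0.05 in limma (6% of all probe sets), leaving out wild-type carrier replicate 1 gave 4 (8.13%), and leaving out replicate 2 of that group gave 17 (14.6%). On the arrays labelled Ccl3-/-, leaving out CCL3 replicate 1 (4.04%) or carrier replicate 1 (8.36%) gave 1 each. Leaving out wild-type CCL3 replicate 2 (3%), or CCL3 replicate 2 (2.72%) or carrier replicate 2 (4.53%) labelled Ccl3-/-, gave 0.

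CCL3 against carrier over both genotypes had a median of 0.05 (all probe sets 0.01), with 38 of 66 genes above 0 (57.6%, against 51.6%). Atp5e (0.61 ± 0.27 SE, unadjusted p = 0.0482 in limma) was higher and Uqcrb (-0.68 ± 0.29, unadjusted p = 0.0384 in limma) lower at an unadjusted p under 0.05, as were 369 probe sets (4.53%, with 2.36% higher and 2.17% lower), and the adjusted p of both was 0.969. Atp5e ranged from 7033 to 11519 on the 4 CCL3 arrays and from 3506 to 7899.6 on the 4 carrier arrays, and Uqcrb from 2386 to 3575 and from 2935 to 6590.5. The ranges overlapped in both genes. No gene had all CCL3 arrays above or below all carrier arrays, where 1.58% and 1.14% of all probe sets had. Leaving out wild-type carrier replicate 2 put 18 genes under an unadjusted p of 0.05 in limma (15.9% of all probe sets). Leaving out replicate 1 of that group (5.19%), wild-type CCL3 replicate 1 (3.15%) or 2 (3.57%), or CCL3 replicate 1 (2.16%) or carrier replicate 1 (5.53%) labelled Ccl3-/- put 1 gene there.

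**Figure D5:**
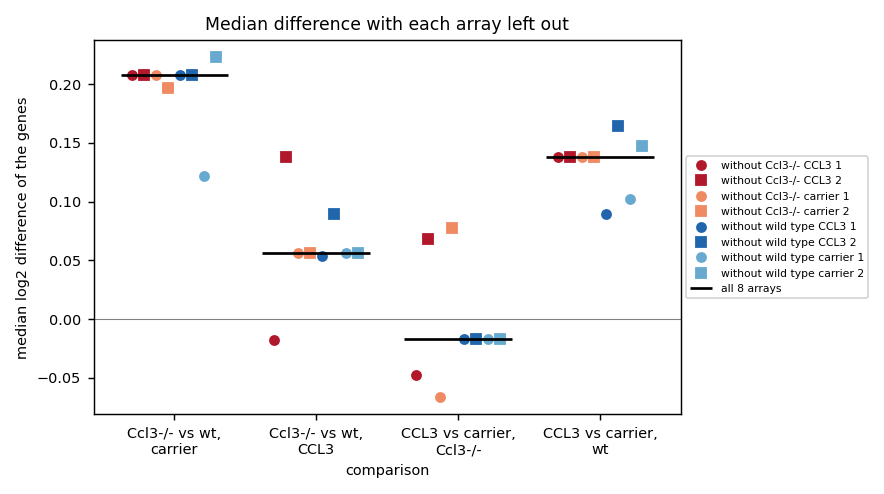
Median log2 difference of the respiratory chain genes in 4 comparisons with each array left out in turn (coloured symbols) and with all 8 arrays (black bars). The median after carrier is 0.12 without wild-type carrier replicate 1 and 0.20 to 0.22 without any other array.

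Several subunits of complex IV have isoforms known from particular tissues. Cox6a2 and Cox7a1, the heart and skeletal muscle isoforms, stayed below the filter with 104 to 278.5 and 14.5 to 223.5 intensity units over the 8 arrays, while Cox6a1 and Cox7a2, their widespread counterparts, were measured on every array, at 24419.7 to 46310.3 and 6874 to 16756. For subunit 8 the picture was different, since the widespread isoform Cox8a stayed between 14.7 and 197 and the muscle isoform Cox8b read 3499 to 8381, and 836 to 1726 on a second probe set. A probe set below the filter does not show that its RNA was absent, and levels of different probe sets are not comparable. Cox8c and Cox6b2, both known from testis, read 1556.5 to 2822 and 355.5 to 1249. Cox6b2 read 1249 and 723.5 on the CCL3 arrays labelled Ccl3-/-, 440.1 and 892 on the carrier arrays labelled Ccl3-/-, 1057.5 and 809 on the wild-type CCL3 arrays, and 355.5 and 1035 on the wild-type carrier arrays, with no order by group. By its brightest probe set, none of the tested isoforms was under an unadjusted p of 0.05 in limma in any of the 7 comparisons. The lowest was Cox8b for CCL3 against carrier over both genotypes (0.53 ± 0.24 SE, unadjusted p = 0.0537 in limma). Its second probe set was at 0.56 ± 0.19 there. With all probe sets of a gene averaged, or with no filter, Cox8b was under 0.05 in limma in that comparison (4.59% and 5.2% of all probe sets). For genotype after carrier, a second probe set of Cox4i1 was at -0.68 ± 0.31, beside -0.30 for the brightest. Cox4i2, Ndufa4, Ndufa4l2 and Atp5g3 were not analysed here. Of 26 skeletal muscle markers 13 passed the filter, and their summed intensity, over all 26, was 13937 to 19022 on the arrays labelled Ccl3-/- and 15006 to 20149.9 on the wild-type arrays. After carrier, 11 of the 13 were below 0, and 1 of these had an unadjusted p below 0.05 by limma. Of all probe sets 6.4% were lower at that threshold. The part of muscle content in the isoform values was not tested.

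Other probe sets of the same genes gave a check within the arrays. Of the 20 genes with several probe sets, 9 had another that passed the filter, 11 such probe sets in all. Their sign matched that of the brightest probe set in 8 of 11 for genotype after carrier, 7 of 11 for genotype after CCL3, 8 of 11 for CCL3 on the arrays labelled Ccl3-/-, 7 of 11 for CCL3 in the wild type, 7 of 11 for genotype over both injections and 5 of 11 for CCL3 over both genotypes. The opposite signs after carrier were those of Atp5g2, Cox8b and Ndufv2. The second probe set of Atp5c1 was at 0.30 ± 0.25 after carrier beside 0.31 ± 0.22 for the brightest. Of the 66 brightest probe sets, 19 carry a letter in their name by which the manufacturer marks probes shared with other transcripts or chosen under relaxed rules, among them those of Atp5d, Atp5e, Cox6a1, Cox6b1, Cox8b, Ndufb2 and Uqcrb, so related sequences could contribute to their signal.

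The rest of the mitochondrial gene set was read from lists of related genes. None of their genes passed an adjusted p of 0.05 in limma in any comparison. After carrier, 16 of 20 genes of mitochondrial protein import had higher means on the arrays labelled Ccl3-/- (median 0.14), 2 of them with an unadjusted p below 0.05 by limma (5.03% of all probe sets), as had 10 of 17 of the citric acid cycle and pyruvate dehydrogenase (0.20), 11 of 15 of fatty acid oxidation (0.25) and 10 of 14 of cytochrome c, ubiquinone and related factors (0.18), beside 47.9% of all probe sets. Fatty acid oxidation had 1 gene on each side of 0 with an unadjusted p below 0.05 by limma, Echs1 above and Acads, a short-chain acyl-CoA dehydrogenase, below (-0.59). The single such gene of the cytochrome c list, Cox18, an assembly factor of complex IV, was below (-0.80). Of 62 genes of the mitochondrial ribosome and translation, 24 were above 0 (median -0.08), 2 of them with a lower mean and an unadjusted p below 0.05 by limma (6.4% of all probe sets). Hspd1, the chaperonin of the mitochondrial matrix, read 8520.2 and 8953 on the carrier arrays labelled Ccl3-/- and 3508 and 6216 on the wild-type carrier arrays (0.89 ± 0.29 SE; adjusted p = 0.375 in limma). Echs1, an enzyme of fatty acid oxidation, read 5014 and 5171 against 1511 and 3226 (1.16 ± 0.33; adjusted p = 0.375 in limma). Both were lowest on wild-type carrier replicate 1, as were 29 of the respiratory chain genes. Mrps18a, a protein of the small mitochondrial ribosomal subunit, had 1789 and 1443 against 3798 and 3033 (-1.03 ± 0.25; adjusted p = 0.363 in limma), without overlap. Of 6 tested regulators of mitochondrial biogenesis 4 were above 0 (median 0.13). The 2 with an unadjusted p below 0.05 by limma were below it (6.4% of all probe sets). These were Polrmt, the RNA polymerase of mitochondria (-0.80), and Ppara, a nuclear receptor that drives fatty acid oxidation (-0.84). Ppargc1a, a coactivator of such receptors, stayed below the filter at 10.4 to 277.0 over the 8 arrays. Of 13 hypoxia response genes tested 9 were above 0 (median 0.07), 2 of them with an unadjusted p below 0.05 by limma (5.03% of all probe sets). These were the glucose transporter gene Slc2a1 (1.13) and Pgk1, an enzyme of glycolysis (0.98). The summed intensity of the hypoxia genes was 60976 on wild-type carrier replicate 1 and 73498 to 88201 on the other arrays.

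Nuclear respiratory chain genes are known targets of the factors NRF1, GABP and YY1, whose short recognition sequences often lie close to their start sites. Promoters from RefSeq (GRCm38.p6, 250 bases before to 50 after each start) matched 60 of the 73 genes. Both strands were searched for fixed letters, and a gene was counted once per motif if any of its promoters matched. Shares are set beside those of all 27025 genes with a promoter, on the array or not. The NRF1 consensus of 10 letters was found for 12 genes (20%, against 5.19%), CCGGAAG (GABP) for 18 (30%, against 9.93%) and AAGATGGC (YY1) for 8 (13.3%, against 3.19%). NRF1 or GABP letters were found for 27 (45%, against 14%), TCAAGGTCA (estrogen-related receptors) for 1 (1.67%, against 0.466%), and TATAAA for 6 (10%, against 15.7%). A match is a description of letters and not a site, and no factor was measured here. The promoters of 4 genes whose values set wild-type carrier replicate 1 apart, or that led a comparison, are shown. All lie on the minus strand of GRCm38.p6, at chr19:10525160-10525459 for Sdhaf2, chr9:50603800-50604099 for Sdhd, chr6:126849095-126849394 for Ndufa9 and chr5:115348909-115349208 for Cox6a1, and are written 5′ to 3′ in the direction of the gene, with motif matches on either strand in capitals.
Sdhaf2: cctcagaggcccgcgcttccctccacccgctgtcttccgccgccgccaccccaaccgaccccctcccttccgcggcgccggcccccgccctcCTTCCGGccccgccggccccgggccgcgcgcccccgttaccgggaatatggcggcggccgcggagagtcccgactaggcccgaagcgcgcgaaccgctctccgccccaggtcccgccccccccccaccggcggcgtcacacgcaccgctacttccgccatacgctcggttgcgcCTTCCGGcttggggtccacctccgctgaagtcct
Sdhd: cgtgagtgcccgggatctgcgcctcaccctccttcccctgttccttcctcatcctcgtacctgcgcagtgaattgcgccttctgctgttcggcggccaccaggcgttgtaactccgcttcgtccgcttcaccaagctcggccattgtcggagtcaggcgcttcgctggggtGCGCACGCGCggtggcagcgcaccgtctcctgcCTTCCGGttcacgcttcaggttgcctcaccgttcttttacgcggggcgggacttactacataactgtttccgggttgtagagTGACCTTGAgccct
Ndufa9: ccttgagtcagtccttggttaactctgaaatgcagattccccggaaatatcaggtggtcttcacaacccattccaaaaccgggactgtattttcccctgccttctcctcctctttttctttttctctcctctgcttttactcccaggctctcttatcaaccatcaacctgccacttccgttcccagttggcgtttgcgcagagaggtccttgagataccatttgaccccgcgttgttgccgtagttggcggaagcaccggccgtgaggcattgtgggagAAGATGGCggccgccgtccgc
Cox6a1: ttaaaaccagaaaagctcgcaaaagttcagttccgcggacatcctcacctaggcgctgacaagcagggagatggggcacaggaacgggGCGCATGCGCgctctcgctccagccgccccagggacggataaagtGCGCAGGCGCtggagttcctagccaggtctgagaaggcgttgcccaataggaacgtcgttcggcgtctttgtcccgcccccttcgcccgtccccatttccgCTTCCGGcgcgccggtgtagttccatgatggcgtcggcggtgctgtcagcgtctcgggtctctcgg
The capitals mark GABP letters at 2 places in Sdhaf2, NRF1, GABP and estrogen-related receptor letters in Sdhd, YY1 letters in Ndufa9, and NRF1 letters at 2 places and GABP letters in Cox6a1. On wild-type carrier replicate 1 Sdhd read 4794.5, against 8323 to 10857 on the other 7 arrays, and Cox6a1 was highest there. Any link between these letters and the array values was not tested.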

How the data were processed

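Total RNA of 8 olfactory mucosa samples was measured on Affymetrix mouse arrays of 12488 probe sets. The values are intensities on a linear scale, 1 per probe set and array, as deposited by the authors; the summary method behind them is not given in the sources used here. Array means trimmed by 2% at each end lie within 0.00434%, so the table was already scaled, and it was kept as deposited. Platform annotation gave 1 gene symbol to 10833 probe sets, several to 396 and none to 1193; 66 control probe sets and 10 probe sets that share a member's symbol with another gene were not used. All 73 symbols matched the gene table.

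Log2(intensity + 102.3), the 20th percentile, was tested with limma 3.58.1 in R 4.3.3. Probe sets over 362.7, the 40th percentile, on at least 2 arrays entered, 8150 in all. The 4 groups of 2 arrays shared 1 fit with 4 residual degrees of freedom, a prior variance with an intensity trend, 7 comparisons and Benjamini-Hochberg adjustment over all tested probe sets. Differences and folds are on that log2 scale, which understates changes of dim probe sets. The number of arrays limits the precision. The fit was tested on simulated data.

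The members, lists and tests were chosen with earlier results of these data known. Named members are the 4 with the smallest unadjusted p in each direction of a comparison, tissue isoforms and their partners, and up to 3 genes of each list per comparison; others, such as Ndufb2, Uqcrq, Cox5b, Atp5a1, Cox6c, Acads, Cox18, Polrmt, Ppara, Slc2a1 and Pgk1, were chosen after their values were seen. Alternatives were quantile normalization, another pseudocount, other filters, no trend, a replicate block, only the groups compared, all probe sets of a gene averaged, and each array left out in turn.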

Additional observations from a re-analysis of the deposited data

Results flagged for a closer look

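In 7 of 120 groups of 4 arrays, 1 array stood further from the others than Dixon's 95% limit; chance alone does so in about 1 of 20 groups. The 7 concern 5 genes, and 3 of them lie on wild-type carrier replicate 1. There Ndufa9 read 2416, against 7603.7 to 8148 on the other wild-type arrays and 7679.4 to 8649.4 on the other carrier arrays, and Sdhd read 4794.5, against 8503 to 9327.3 on the other wild-type arrays. Cox6b1 read 912.8 on carrier replicate 1 labelled Ccl3-/- (550.6 to 597.7 on the other arrays labelled Ccl3-/-) and 1097.7 on wild-type CCL3 replicate 2 (531.1 to 567 on the other CCL3 arrays). Sdha read 1084.6 on carrier replicate 2 labelled Ccl3-/- (1531.6 to 1627.2 on the others with that label), and Ndufa1 read 640.5 on wild-type carrier replicate 2 (319.2 to 346 on the other carrier arrays).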

How the results depend on the processing

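No respiratory chain gene passed the adjusted threshold under any alternative that kept all 8 arrays. Leaving out an array left 1 array in its group, so no p-values are given from those fits. With each array left out, the median log2 difference was 0.12 to 0.22 for genotype after carrier (lowest without wild-type carrier replicate 1), -0.018 to 0.14 for genotype after CCL3 (without CCL3 replicates 1 and 2 labelled Ccl3-/-), -0.067 to 0.078 for CCL3 on the arrays labelled Ccl3-/- (without their carrier replicates 1 and 2), 0.089 to 0.16 for CCL3 in the wild type (without its CCL3 replicates 1 and 2), -0.25 to -0.069 for the interaction (without CCL3 replicates 1 and 2 labelled Ccl3-/-), 0.085 to 0.16 for genotype over both injections and 0.030 to 0.085 for CCL3 over both genotypes. The genes under an unadjusted p of 0.05 in limma numbered, in the same order, 0 to 26, 0 to 3, 0 to 2, 0 to 25, 0 to 14, 0 to 17 and 1 to 18, and the probe sets past the adjusted threshold 0 to 113, 0 to 1, 0 to 1, 0 to 74, 0 to 0, 0 to 6 and 0 to 20. Except for genotype after CCL3 and CCL3 on the arrays labelled Ccl3-/-, each of the highest counts came without wild-type carrier replicate 2, apart from the interaction's 0 to 0. Genes with 4 arrays on each side apart numbered 2 to 5 (Ccl3-/- label above; 2.02% to 4.35% of all probe sets), 1 to 1 (below; 2.7% to 5.3%), 0 to 2 (CCL3 above; 2.32% to 5.43%) and 0 to 4 (CCL3 below; 1.72% to 4.15%).

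Quantile normalization gave 1 gene under an unadjusted p of 0.05 in limma for each comparison over both injections or genotypes, and 1 gene all above and 0 all below for the Ccl3-/- label. No filter gave medians of 0.14 (genotype after carrier), 0.069 (CCL3 in the wild type) and -0.090 (interaction), and 1 gene with CCL3 all above. The 60th percentile filter gave a median of 0.29 and 0 genes for genotype after carrier, and 1 gene for CCL3 over both genotypes. No intensity trend gave 1 gene for each comparison over both injections or genotypes, and fitting only the groups compared gave 0 genes for genotype after carrier and 1 probe set past the adjusted threshold for genotype after CCL3. Averaging all probe sets of a gene gave medians of 0.059 (CCL3 in the wild type), -0.077 (interaction) and -0.029 (CCL3 over both genotypes), 0 genes all above and 0 all below for the Ccl3-/- label, Atp5d at 0.093 for genotype after CCL3, and Ndufb7 at -0.12 for CCL3 in the wild type and 0.00180 for the interaction. These averages took in probe sets below the filter, among them those of Atp5d and Ndufb7.

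Some genes changed sign when an array was left out, over these ranges. For genotype after carrier, Uqcrh ran from -0.11 to 1.29 (without carrier replicates 1 and 2 labelled Ccl3-/-), and Cox5b from -0.96 to 0.12, Cox6a1 from -0.75 to 0.078 and Uqcrq from -0.70 to 0.00119 (each lowest without wild-type carrier replicate 2 and highest without replicate 1). For genotype after CCL3, Uqcrh ran from -1.39 to 0.17 and Cox6b1 from -0.86 to 0.062, between the settings without wild-type CCL3 replicate 1 or 2. For CCL3 in the wild type, Uqcrh ran from -0.15 to 1.41 (without its CCL3 replicates 1 and 2), Ndufv1 from -0.042 to 1.05 and Cox5b from -0.97 to 0.11 (without its carrier replicates 1 or 2). The cause of these changes was not tested.

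Replicate numbers did not pair the samples in all groups. Over all probe sets, the correlation of same-numbered arrays' deviations was -0.16 to 0.18 over 6 pairs of groups, and over 0.1 in 2. Over the respiratory chain genes alone it was 0.25 to 0.46 in the 3 pairs among the wild-type groups and the carrier group labelled Ccl3-/-. In pairs with the CCL3 group labelled Ccl3-/- it was -0.15 to -0.008. The main fit held no replicate term. With the replicate block, the genes under an unadjusted p of 0.05 in limma numbered 0 for genotype after carrier, without Sdhaf2, 2 for CCL3 on the arrays labelled Ccl3-/- (Atp5md and Atp5mpl), 2 for the interaction (Atp5md and Uqcrh) and 1 for genotype over both injections, without Atp5o. For CCL3 over both genotypes Atp5mpl joined Atp5e and Uqcrb, and 1 probe set passed the adjusted threshold for genotype after carrier and 1 for each comparison over both injections or genotypes.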
